A study of Mus musculus with 23 samples.

Results

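The Polycomb genes described here are Bmi1, Pcgf2, Ring1, Rnf2, Cbx2, Cbx7, Ezh1, Ezh2, Eed and Suz12, 10 of the 54347 genes in the count table. They were taken by name, after Ensembl gene identifiers had been matched to symbols. RNA sequencing was done on 23 libraries of sorted cells from the labial cervical loop, the epithelial fold at the growing end of the mouse lower incisor, which holds the stem cells of the enamel organ. All mice were at postnatal day 2 and carried a reporter in which the endogenous Sox2 promoter drives green fluorescent protein, so the sort separates cells by the activity of that promoter in 1 reporter line. There were 6 Sox2-negative and 6 Sox2-positive libraries in batch A, and 4 Sox2-negative and 7 Sox2-positive libraries in batch B. The batches were experiments on separate days with different mice, so mice and days cannot be told apart. The labels do not say whether libraries of 1 batch came from different mice, so n counts libraries and the p-values measure a spread that may be technical.

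Polycomb proteins keep genes silent by modifying histones, in a pair of complexes. Polycomb repressive complex 1 (PRC1) places ubiquitin on histone H2A through a RING-finger ligase, Ring1 or Rnf2 (Ring1b), joined to a PCGF partner such as Bmi1 (Pcgf4) or Pcgf2 (Mel18), and its canonical forms are guided by chromodomain proteins of the Cbx family. Polycomb repressive complex 2 (PRC2) methylates histone H3 at lysine 27 through Ezh2 or Ezh1, held together by Eed and Suz12. Bmi1 is known in the mouse incisor as a marker of epithelial stem cells and as a factor in their self-renewal, with the Ink4a/Arf locus (Cdkn2a) and Hox genes among its targets.

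The genes of the PCGF pair and of the catalytic pair of PRC2 are introduced by their promoters, because the ratio within each pair is the pattern that the results turn on. Each line gives the 250 bases before the gene start as RefSeq places it on GRCm38.p6, read 5′ to 3′ on the gene's strand. For Pcgf2 and Ezh2 that start lies inside the span of the GENCODE annotation given below, so their windows are within the annotated gene. Capitals mark matches, on either strand, to a GC box (GGGCGG, the core bound by Sp-family factors), a CCAAT box (CCAAT) or an E2F site (TTTCCCGC, TTTGGCGC, TTTCGCGC or TTTGCCGC). The windows are chr2:18676768-18677017 on the plus strand for Bmi1, chr11:97699649-97699898 on the minus strand for Pcgf2, chr6:47595031-47595280 on the minus strand for Ezh2, and chr11:101226464-101226713 on the minus strand for Ezh1.
Bmi1: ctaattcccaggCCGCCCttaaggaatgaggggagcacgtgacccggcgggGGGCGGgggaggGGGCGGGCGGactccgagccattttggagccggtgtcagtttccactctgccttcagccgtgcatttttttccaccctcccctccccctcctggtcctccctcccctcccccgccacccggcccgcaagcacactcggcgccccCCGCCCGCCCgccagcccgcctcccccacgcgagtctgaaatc
Pcgf2: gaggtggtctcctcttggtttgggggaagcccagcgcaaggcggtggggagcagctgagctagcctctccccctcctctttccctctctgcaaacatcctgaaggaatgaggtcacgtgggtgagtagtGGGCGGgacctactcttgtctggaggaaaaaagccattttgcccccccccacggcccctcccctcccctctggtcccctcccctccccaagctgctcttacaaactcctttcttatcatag
Ezh2: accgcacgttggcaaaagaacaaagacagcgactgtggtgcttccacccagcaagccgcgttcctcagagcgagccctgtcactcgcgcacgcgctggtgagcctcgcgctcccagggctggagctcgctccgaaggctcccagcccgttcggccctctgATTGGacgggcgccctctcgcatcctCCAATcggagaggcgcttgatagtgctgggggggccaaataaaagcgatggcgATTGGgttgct
Ezh1: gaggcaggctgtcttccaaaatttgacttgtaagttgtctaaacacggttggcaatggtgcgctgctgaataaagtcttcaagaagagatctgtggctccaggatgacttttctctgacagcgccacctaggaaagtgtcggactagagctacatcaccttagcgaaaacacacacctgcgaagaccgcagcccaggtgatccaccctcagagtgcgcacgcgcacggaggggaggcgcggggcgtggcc
The Bmi1 window held 6 GC box matches, some of which overlap each other, and that of Pcgf2 held 1. The Ezh2 window held 3 CCAAT matches and no GC box, and the Ezh1 window held no match to any of the motifs. Among 32851 promoter windows of the same length, 32.7% held a GC box, 33.8% a CCAAT box and 1.86% an E2F match. A promoter was found for 9 of the 10 genes, of which 6 held a GC box (Rnf2, Bmi1, Suz12, Pcgf2, Cbx7 and Ring1), 3 a CCAAT box (Ezh2, Suz12 and Cbx7) and 1 an E2F match (Suz12). GC content was 70.4% in the Bmi1 window, 59.6% in that of Pcgf2, 63.6% in that of Ezh2 and 55.2% in that of Ezh1, against a median of 52.4% over all windows. These matches are descriptions of the letters and not binding sites.

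In the GENCODE annotation of GRCm38, Bmi1 spans chr2:18677018-18686629, Rnf2 chr1:151458004-151500955, Ring1 chr17:34020792-34024680, Cbx7 chr15:79915807-79971119, Ezh2 chr6:47530139-47595341 and Eed chr7:89954654-89980983. Chromosome 11 carries the other 4 genes, with Suz12 at chr11:79993106-80034123, Pcgf2 at chr11:97688823-97700497, Ezh1 at chr11:101191115-101226463 and Cbx2 at chr11:119022962-119031270. Exon bases of 5 members are shared with a gene on the opposite strand: Trmt1l at Rnf2, Apobec3 at Cbx7, E230029C05Rik at Eed, and the long noncoding RNAs Gm26625 at Ezh2 and Gm26563 at Suz12, which were not analysed here. Whether the counting used strand is not given in the sources used here, so reads of these partners cannot be told apart from those of the members. Apobec3 was itself lower in Sox2-positive cells (log2 fold change -0.85, edgeR adjusted p 8.41e-04), while Trmt1l (-0.20, edgeR adjusted p 0.376) and E230029C05Rik (-0.37, edgeR adjusted p 0.587) did not pass.

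Total counts ran from 2305778 to 9541443 per library, so that 3 counts, taken as the smallest level that can be seen, correspond to 0.340 to 1.27 CPM, which are counts put on the same total in every library. Sox2, the sorted gene, checked the labels: it had at most 1 count in batch A Sox2-negative libraries and 14 to 64 in Sox2-positive ones, 0 to 10 and 37 to 121 in batch B, and a log2 fold change of 5.94 (SE 0.66, edgeR adjusted p 1.79e-08). The populations differed in cell content as far as marker genes show it. All 10 epithelial markers were higher after the positive sort, with a summed level of 170 to 288 CPM in batch A Sox2-negative libraries against 4469 to 4907 in Sox2-positive ones, and of 437 to 483 against 4803 to 6742 in batch B. All 10 mesenchymal markers were lower, with summed levels of 11411 to 13188 against 1265 to 1808 CPM for batch A and 10727 to 14054 against 612 to 724 CPM for batch B, and Twist1 was at 0 in every Sox2-positive library. Leukocyte (8 of 8), endothelial (8 of 8) and erythroid markers (7 of 7) were also lower. Of 8 glial and neural crest markers, 7 were higher and 1 lower, with summed levels of 23.5 to 57.5 against 876 to 1118 CPM for batch A and 36.9 to 49.4 against 43.1 to 80.0 CPM for batch B. Foxd3 was at 0 in every Sox2-negative library, and Sox10 and Cdh19 in those of batch B. Of 5 ameloblast markers tested, 4 were lower and 1 higher, with summed levels of 705 to 915 against 296 to 359 CPM for batch A and 569 to 703 against 9.77 to 18.2 CPM for batch B. Batch B libraries numbered 1 and 2 resembled each other more than the rest of their group in both populations: Pearson's r of log2 CPM across 17190 genes was 0.936 between them and 0.894 to 0.901 with the others in Sox2-negative cells, and 0.972 against 0.941 to 0.954 in Sox2-positive cells. In bulk samples, fewer cells of a type and less RNA per cell cannot be told apart.

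The first question was which Polycomb genes differ between Sox2-positive and Sox2-negative cells of the cervical loop. Over both batches, Pcgf2, Ezh2 and Suz12 were lower and Cbx2 and Ezh1 were higher in Sox2-positive cells, while Bmi1, Ring1, Rnf2, Cbx7 and Eed did not pass. That is 5 of 10 members called by edgeR's quasi-likelihood test, whose threshold was an adjusted p of 0.05, 2 higher and 3 lower, with 6 at an unadjusted p under 0.05. Of all 17190 genes tested, 57.5% were called, 24.9% higher and 32.5% lower, so the share of members called is near the background. The median log2 fold change was 0.04 over the members and -0.12 over all genes tested. Differences below are log2 fold changes of Sox2-positive over Sox2-negative cells, and levels are CPM, which are not comparable between genes of different length.

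**Figure D1:**
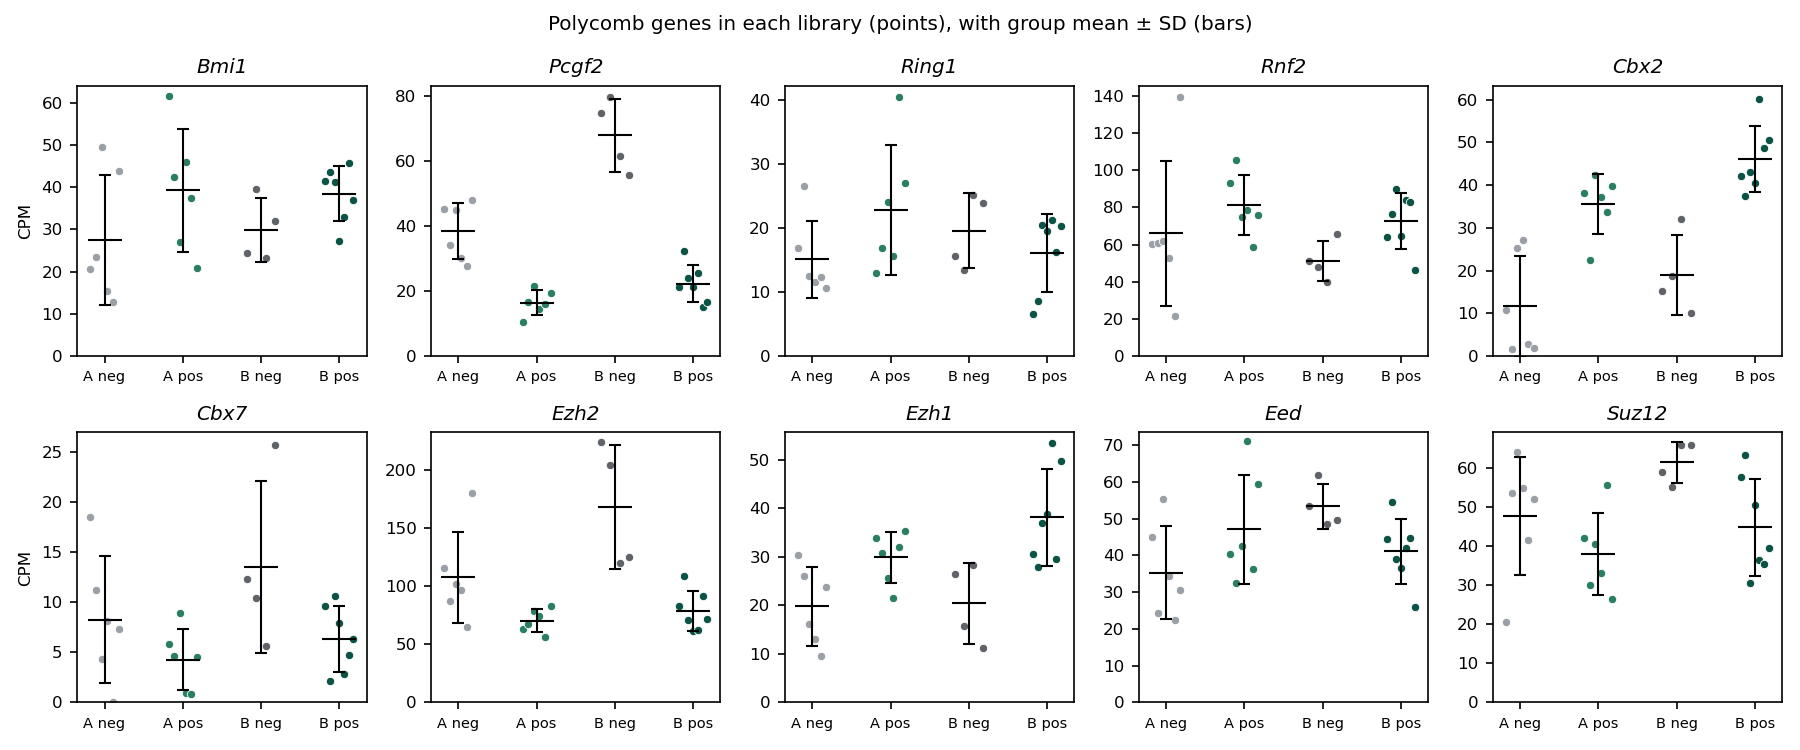
Expression of the 10 Polycomb genes in each of the 23 libraries, in CPM on a linear axis that starts at 0, by batch and population; points are libraries and bars give the group mean ± SD. Pcgf2 points of the 2 populations are apart in both batches, from 10.5 to 21.7 against 27.8 to 48.0 CPM in batch A, while those of Bmi1 overlap in both.

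Among the PRC1 core genes, Bmi1, the stem cell marker, was present in every library. It ran from 12.7 through a median of 22.0 to 49.6 CPM in batch A Sox2-negative cells and from 20.8 through 40.0 to 61.5 CPM in Sox2-positive cells. In batch B it measured 24.4, 39.6, 23.3 and 32.0 CPM in the 4 Sox2-negative libraries and ran from 27.2 through 41.2 to 45.8 CPM in the Sox2-positive ones. The ranges overlapped in both batches. Over both batches the difference was 0.36 (SE 0.22, 95% interval -0.09 to 0.81, edgeR adjusted p 0.160), with 0.44 in batch A (edgeR adjusted p 0.362) and 0.35 in batch B (edgeR adjusted p 0.157). The interval leaves room for no difference and for one of 0.81.

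Pcgf2, the closest relative of Bmi1 among the PCGF subunits, was the member with the smallest adjusted p. Its level ran from 27.8 through 39.6 to 48.0 CPM in batch A Sox2-negative cells and from 10.5 through 16.3 to 21.7 CPM in Sox2-positive cells. In batch B it was 74.8, 79.7, 61.7 and 55.6 CPM in the Sox2-negative libraries, and from 15.1 through 21.3 to 32.4 CPM in the Sox2-positive ones. No Sox2-positive library reached the lowest Sox2-negative library of its batch. The difference was -1.49 (SE 0.17, 95% interval -1.83 to -1.14, edgeR adjusted p 2.27e-08), a 2.80-fold lower level. It was -1.30 in batch A (SE 0.28, edgeR adjusted p 0.00136) and -1.62 in batch B (SE 0.20, edgeR adjusted p 5.98e-06). Without batch B libraries 1 and 2 it was -1.34 over both batches (edgeR adjusted p 5.47e-06).

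The ligases themselves did not pass over both batches. Rnf2, the main H2A ubiquitin ligase of PRC1, ran from 21.3 through 60.4 to 139 CPM in batch A Sox2-negative cells, where library 6 stood far above the rest, and from 58.7 through 77.2 to 105 CPM in Sox2-positive cells. Its batch B levels were 50.9, 47.9, 39.6 and 65.4 CPM in Sox2-negative libraries and from 46.3 through 76.3 to 90.1 CPM in Sox2-positive ones. The populations overlapped in both batches. The difference was 0.31 over both batches (SE 0.20, edgeR adjusted p 0.178), and without batch A Sox2-negative library 6 it was 0.55 (edgeR adjusted p 0.00629). In batch B alone it was called at 0.50 (SE 0.19, edgeR adjusted p 0.0351), a call that was lost without libraries 1 and 2 (0.47, edgeR adjusted p 0.181) and on leaving out any of 7 single libraries (Sox2-negative 1, 2 or 3, Sox2-positive 2, 3, 5 or 6, edgeR adjusted p 0.0623 to 0.0975). The omission of libraries 1 and 2 was among 4 of 9 settings, other than leaving out 1 library, that lost this call. Ring1, its paralogue, averaged 15.1 ± 6.01 CPM in batch A Sox2-negative cells (SD, n = 6) and 22.9 ± 10.2 CPM in Sox2-positive cells (n = 6), against 19.6 ± 5.89 (n = 4) and 16.1 ± 6.10 CPM (n = 7) in batch B. Its difference was 0.53 in batch A and -0.29 in batch B, and neither passed (edgeR adjusted p 0.270 and 0.506). In batch B Sox2-positive cells Ring1 measured 6.57 and 8.55 CPM in libraries 1 and 2 and 16.2 to 21.2 CPM in the other 5.

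The chromodomain genes had differences of opposite sign, of which that of Cbx2 passed. Cbx2, a canonical PRC1 subunit that compacts chromatin, was higher in Sox2-positive cells. It ran from 1.66 through 6.80 to 27.2 CPM in batch A Sox2-negative cells and from 22.4 through 37.7 to 42.4 CPM in Sox2-positive cells. Batch B Sox2-negative libraries gave 15.3, 18.7, 32.0 and 9.99 CPM, all below the Sox2-positive range of 37.3 through 43.1 to 60.2 CPM. In batch A, Sox2-negative libraries 3 and 4, at 25.3 and 27.2 CPM, fell within the Sox2-positive range and the other 4 lay at 10.7 CPM or less. The difference was 1.38 (SE 0.36, 95% interval 0.64 to 2.12, edgeR adjusted p 0.00186), a 2.60-fold higher level. It was 1.27 in batch B (SE 0.27, edgeR adjusted p 9.79e-04) and 1.54 in batch A (SE 0.62), where it did not pass (edgeR adjusted p 0.0534). The batch A difference passed with DESeq2 (DESeq2 adjusted p 0.0225), limma-voom (adjusted p 0.00315), total-count scaling (edgeR adjusted p 0.0427) and no low-count filter (edgeR adjusted p 0.0269), and without Sox2-negative library 3 or 4 (edgeR adjusted p 0.0249 and 0.0187).

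Cbx7, the chromodomain subunit known for repressing the Ink4a/Arf locus, was the lowest member in counts. It ran from 0 through 7.73 to 18.5 CPM in batch A Sox2-negative cells, with no count in library 5, and from 0.819 through 4.57 to 8.93 CPM in Sox2-positive cells. In batch B the levels were 12.4, 10.4, 5.65 and 25.6 CPM against 2.10 through 6.37 to 10.6 CPM. The ranges overlapped in both batches. The difference was -1.10 (SE 0.50, 95% interval -2.12 to -0.08) and did not pass over all genes (edgeR adjusted p 0.0608). It passed under DESeq2 (DESeq2 adjusted p 0.0399), on counts thinned to the smallest total (edgeR adjusted p 0.0493) and when batch A Sox2-negative library 5 (edgeR adjusted p 0.0109) or Sox2-positive library 3 (edgeR adjusted p 0.0434) was left out. In batch B alone it did not pass (-1.10, edgeR adjusted p 0.0580), but did under DESeq2 (DESeq2 adjusted p 0.0360), with RLE scaling (edgeR adjusted p 0.0462), on thinned counts (edgeR adjusted p 0.0297), and without Sox2-negative library 3 or Sox2-positive library 3 (edgeR adjusted p 0.0222 and 0.0404).

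The catalytic subunits of PRC2 moved in opposite directions. Ezh2, the methyltransferase that prevails in dividing cells, ran from 64.9 through 99.0 to 180 CPM in batch A Sox2-negative cells and from 56.3 through 70.8 to 82.6 CPM in Sox2-positive cells. In batch B the Sox2-negative libraries gave 224, 204, 120 and 125 CPM, all above the Sox2-positive range of 61.1 through 71.8 to 109 CPM. The batch A ranges overlapped and those of batch B did not. The difference was -0.92 (SE 0.16, 95% interval -1.24 to -0.60, edgeR adjusted p 1.47e-05), a 1.90-fold lower level, with -0.69 in batch A (edgeR adjusted p 0.0171) and -1.11 in batch B (edgeR adjusted p 1.19e-04). Since batch B Sox2-negative libraries 1 and 2 carried the highest Ezh2 levels, the fit was repeated without libraries 1 and 2, and gave -0.68 over both batches (edgeR adjusted p 9.34e-04) and -0.78 in batch B (edgeR adjusted p 0.00324).

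Ezh1, the weaker methyltransferase known from resting and differentiated cells, ran from 9.62 through 19.9 to 30.5 CPM in batch A Sox2-negative cells and from 21.6 through 31.4 to 35.4 CPM in Sox2-positive cells. Batch B Sox2-negative libraries gave 26.5, 15.7, 28.3 and 11.2 CPM, and the Sox2-positive ones ran from 27.9 through 37.0 to 53.5 CPM. Ranges overlapped in both batches. The difference was 0.65 (SE 0.22, 95% interval 0.21 to 1.10, edgeR adjusted p 0.0120), a 1.57-fold higher level. It passed in batch B (0.89, SE 0.29, edgeR adjusted p 0.0160) and not in batch A (0.52, SE 0.32, edgeR adjusted p 0.212). The batch B call was lost without Sox2-negative library 2 (edgeR adjusted p 0.0504), and under 2 of 9 settings other than leaving out 1 library.

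Of the PRC2 scaffold genes, Suz12 was called lower and Eed was not called. Suz12, which anchors the accessory subunits, ran from 20.7 through 52.9 to 64.2 CPM in batch A Sox2-negative cells and from 26.6 through 36.9 to 55.9 CPM in Sox2-positive cells. In batch B it was 59.1, 55.4, 65.9 and 66.1 CPM against 30.7 through 39.5 to 63.4 CPM, where Sox2-positive libraries 1 and 2 were the highest at 57.7 and 63.4 CPM and overlapped the Sox2-negative ones. The difference was -0.47 (SE 0.17, 95% interval -0.82 to -0.12, edgeR adjusted p 0.0205). This call was lost with total-count scaling (edgeR adjusted p 0.0811), with no low-count filter (edgeR adjusted p 0.102), and on leaving out any of 9 single libraries: batch A Sox2-positive 2 or 6, batch B Sox2-negative 1, 3 or 4, and batch B Sox2-positive 3, 5, 6 or 7 (edgeR adjusted p up to 0.0686). Eed, which reads the methyl mark, averaged 35.3 ± 12.7 and 47.1 ± 14.9 CPM in Sox2-negative and Sox2-positive cells of batch A (SD, n = 6 each), and 53.4 ± 6.10 (n = 4) and 41.1 ± 8.78 CPM (n = 7) in batch B. Its difference over both batches was -0.04 (SE 0.19, 95% interval -0.42 to 0.34, edgeR adjusted p 0.864), with 0.34 in batch A and -0.39 in batch B (edgeR adjusted p 0.351 and 0.0739). The batch B difference of Eed passed without Sox2-positive library 2 (-0.49, edgeR adjusted p 0.0348). It also passed under 3 of 9 settings other than leaving out 1 library, among them DESeq2 (DESeq2 adjusted p 0.0298). The difference of Eed over both batches turned to 0.08 with total-count scaling.

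**Figure D2:**
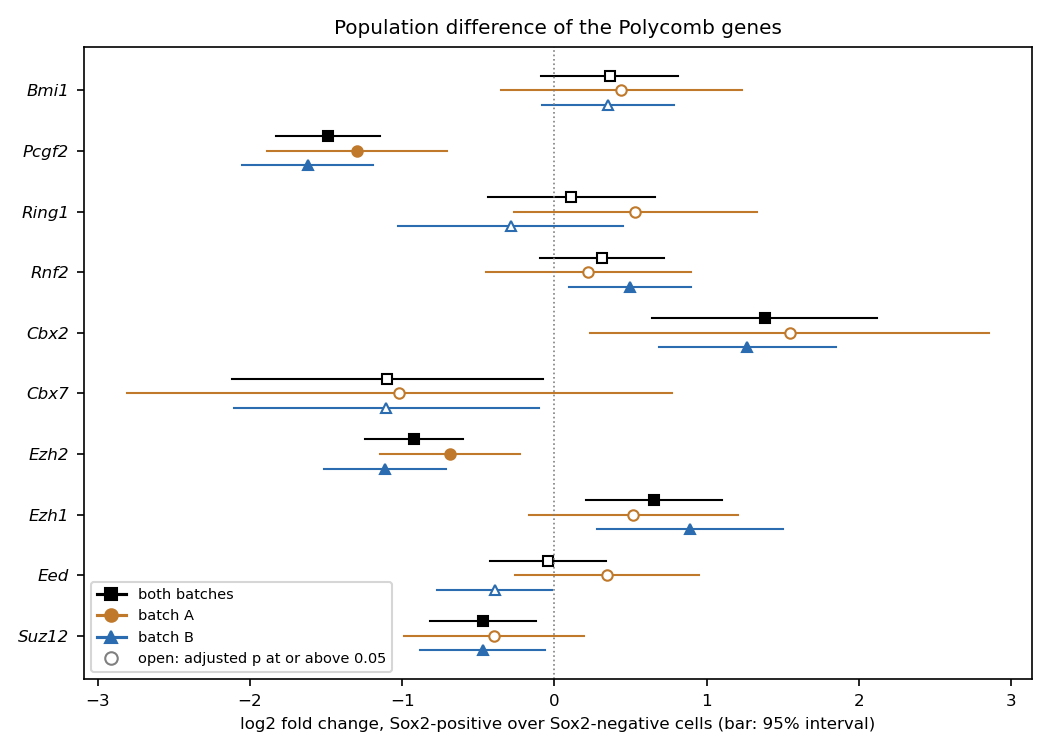
Log2 fold change of Sox2-positive over Sox2-negative cells for the 10 members, over both batches (squares), batch A (circles) and batch B (triangles), with 95% intervals from the edgeR fits; filled symbols passed the threshold and the dotted line is no difference. Pcgf2 (-1.49) and Ezh2 (-0.92) lie below the line in all 3 fits, and Cbx2 (1.38) and Ezh1 (0.65) lie above it.

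Within single batches the calls were fewer in batch A. There, 2 of 10 members were called, both lower (Pcgf2 and Ezh2), with 3 at an unadjusted p under 0.05, against 43.4% of 14296 genes tested. In batch B, 6 of 10 were called, 3 higher (Rnf2, Cbx2 and Ezh1) and 3 lower (Pcgf2, Ezh2 and Suz12), with 8 at an unadjusted p under 0.05, against 54.7% of 15765 genes tested. Pcgf2 and Ezh2 passed in both batches. Suz12 in batch B was near the threshold (-0.47, edgeR adjusted p 0.0493) and was -0.79 without libraries 1 and 2 (edgeR adjusted p 0.0154). The Suz12 call in batch B was lost on leaving out any 1 Sox2-negative library, or Sox2-positive library 3, 5, 6 or 7 (edgeR adjusted p 0.0592 to 0.0998). It was also lost under 4 of 9 settings other than leaving out 1 library. Without Sox2-negative library 2, 3 members were called in batch B.

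The batches were then compared. The population difference itself differed between batches for 0 of 10 members (edgeR interaction test, 1 at an unadjusted p under 0.05, and 0 with DESeq2 and with limma-voom), against 7.04% of the 17190 genes (2.82% higher, 4.22% lower in batch B). The interaction, batch B minus batch A, was furthest from 0 for Ring1 at -0.87 (SE 0.51, edgeR adjusted p 0.370) and Eed at -0.80 (SE 0.34, 95% interval -1.51 to -0.10, edgeR adjusted p 0.177). The adjusted p of the other members ran up to 0.972 for Cbx7, whose interval of -2.26 to 1.94 is the widest. Within Sox2-negative cells, 1 of 10 members differed between batches, against 11.2% of genes (5.85% higher and 5.35% lower in batch B). This was Pcgf2, at 38.4 ± 8.72 CPM (SD, n = 6) for batch A and 68.0 ± 11.2 CPM (n = 4) for batch B, a difference of 0.82 (SE 0.25, edgeR adjusted p 0.0305) that was lost with total-count scaling, with no low-count filter, without batch B libraries 1 and 2 together or either alone, and without batch A library 4 or 5 (edgeR adjusted p 0.0528 to 0.383). Ezh2 did not pass there (0.64, edgeR adjusted p 0.0663) but did without batch A library 6 or batch B library 3 or 4 (edgeR adjusted p 0.00748 to 0.0406). Within Sox2-positive cells, 0 of 10 differed (edgeR, 0 at an unadjusted p under 0.05, and 0 with DESeq2 and with limma-voom), against 10.4% of genes (4.85% higher and 5.54% lower).

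Ratios of paralogues within each library do not depend on how libraries are scaled, and were compared by exact permutation tests, 2-sided, of the mean log2 count ratio over 4 pairs and 2 batches, with p-values adjusted over these 8 tests. They rest on the same counts as the differences above. Bmi1 counts exceeded Pcgf2 counts in Sox2-positive cells, with a log2 Bmi1/Pcgf2 ratio of 1.20 ± 0.899 in batch A (SD, n = 6) and 0.81 ± 0.467 in batch B (n = 7). In Sox2-negative cells the ratio was below 0, at -0.63 ± 0.543 in batch A (n = 6) and -1.21 ± 0.372 in batch B (n = 4). The difference was 1.83 in batch A (exact permutation p 0.00433, adjusted p 0.0121), where the populations overlapped, and 2.01 in batch B (exact permutation p 0.00606, adjusted p 0.0121), where they did not. Expressed as fold, the ratio was 3.55 times higher in Sox2-positive cells of batch A and 4.03 times higher in those of batch B. Per kilobase of exons, the Bmi1/Pcgf2 level ratio was 2.04 in Sox2-positive and 0.574 in Sox2-negative cells of batch A, and 1.55 and 0.385 in batch B. Which of the genes stood higher in Sox2-negative cells depended on the length used, as given below.

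The log2 Ezh2/Ezh1 ratio was positive in every library and lower in Sox2-positive cells. It was 1.24 ± 0.386 in Sox2-positive (SD, n = 6) and 2.47 ± 0.510 in Sox2-negative cells of batch A (n = 6), a difference of -1.23 (exact permutation p 0.00433, adjusted p 0.0121), and the populations overlapped. For batch B the values were 1.05 ± 0.637 (n = 7) and 3.08 ± 0.711 (n = 4), a difference of -2.03 (exact permutation p 0.00606, adjusted p 0.0121), with no overlap between populations. The ratio was therefore 2.35-fold lower in batch A and 4.08-fold lower in batch B. Per kilobase of exons, the Ezh2/Ezh1 level ratio was 6.18 in Sox2-negative and 2.63 in Sox2-positive cells of batch A. In batch B these ratios were 9.43 and 2.31.

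The log2 Cbx2/Cbx7 ratio was 2.82 higher in Sox2-positive cells of batch A, a difference that did not pass (exact permutation p 0.0519, adjusted p 0.0693). It passed without Sox2-negative library 5, which has no Cbx7 count (3.67, exact permutation adjusted p 0.0208), and with a pseudocount of 5 (2.77, exact permutation adjusted p 0.0104). In batch B the ratio was 2.46 higher (exact permutation p 0.0242, adjusted p 0.0388). The spread was wide in Sox2-negative cells, at 0.62 ± 2.90 in batch A (SD, n = 6) and 0.57 ± 1.58 in batch B (n = 4). Leaving out any 1 of 7 libraries of batch B (Sox2-negative 1, 2 or 4, Sox2-positive 2, 5, 6 or 7) ended the batch B call. For the ligases, the log2 Rnf2/Ring1 ratio differed by -0.09 in batch A (exact permutation p 0.879) and 0.85 in batch B (exact permutation p 0.0788, adjusted p 0.0900), and neither passed. Without Sox2-positive library 7 the batch B difference was 1.02 (exact permutation adjusted p 0.0305). The smallest p these designs can give is 0.00216 in batch A and 0.00606 in batch B.

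**Figure D3:**
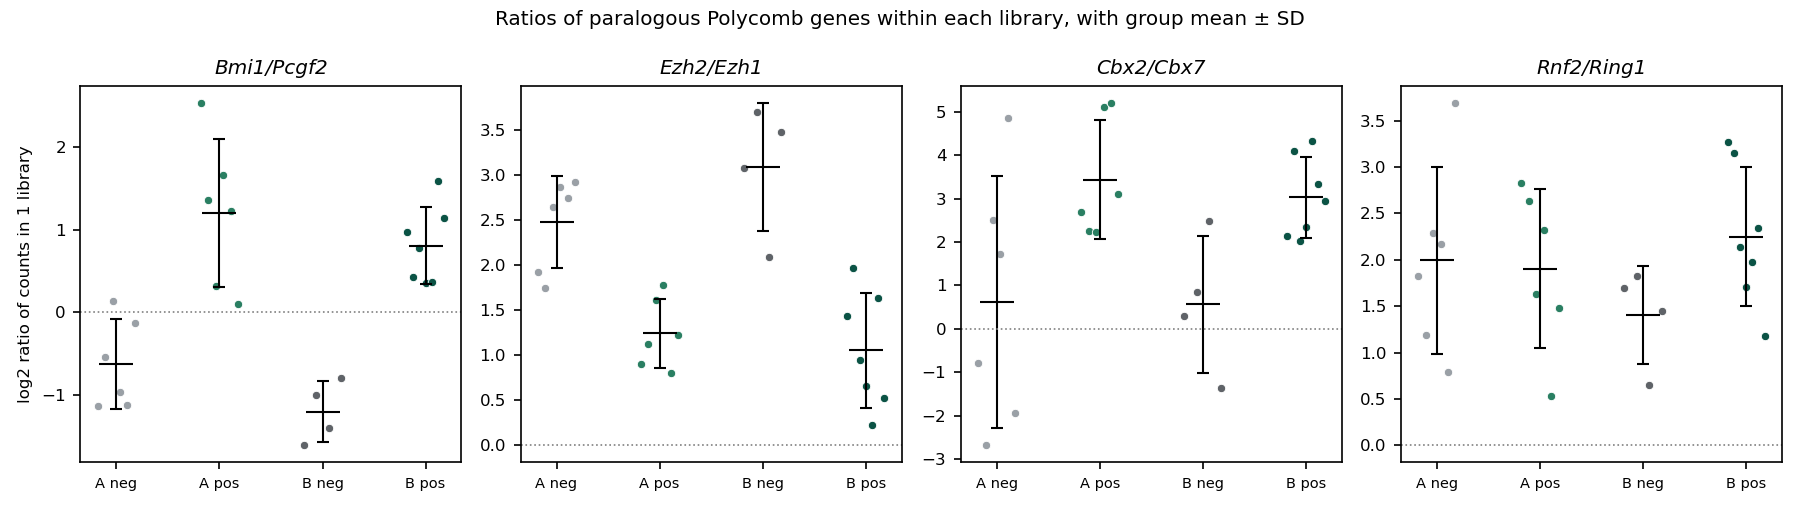
Log2 ratio of counts of 4 paralogue pairs in each library, by batch and population; points are libraries, bars the group mean ± SD, and the dotted line marks equal counts. Bmi1/Pcgf2 lies above 0 in every Sox2-positive library, and Ezh2/Ezh1 is positive in every library but lower in Sox2-positive cells.

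Levels were compared between members per kilobase of the union of a gene's exons, scaled to the same total in every library (a length-scaled level). Whether the deposited counts already carry an adjustment for gene length is not given in the sources used here, and such an adjustment would change these values and the per-kilobase ratios above. In Sox2-negative cells Ezh2 ranked first, at 40.7 ± 15.3 in batch A (SD, n = 6) and 54.1 ± 15.9 in batch B (n = 4). Rnf2 followed in batch A at 40.4 ± 23.9, and Pcgf2 in batch B at 41.5 ± 5.49. In Sox2-positive cells Rnf2 ranked first, at 54.4 ± 10.96 in batch A (n = 6) and 44.0 ± 9.84 in batch B (n = 7), with Eed second in batch A (34.1 ± 11.3) and Ezh2 second in batch B (29.2 ± 5.22). Bmi1 ranked sixth in both Sox2-negative groups, at 17.4 ± 9.43 and 16.1 ± 3.64. In Sox2-positive cells it stood higher in the order, below Rnf2, Eed and Ezh2 in batch A (27.4 ± 10.6) and below Rnf2, Ezh2, Cbx2 and Eed in batch B (24.1 ± 3.70). By the union of exons, Cbx7 was last in all 4 groups, with a lowest mean of 1.81 ± 1.28 (batch A, Sox2-positive) and a highest of 4.53 ± 2.96 (batch B, Sox2-negative). Of the 9 neighbouring pairs in each order, the ranges over libraries overlapped for 9 and 8 in the Sox2-negative and Sox2-positive cells of batch A, and for 7 and 8 in those of batch B. Such overlap does not compare genes within a library, so it does not show that neighbours were equal. The order also changed with the length used. With the longest transcript, Ezh2 instead of Rnf2 led in batch B Sox2-positive cells. With the median transcript length, Cbx7 was last only in batch A Sox2-positive cells. Cbx2 was then last in both Sox2-negative groups and Ring1 in batch B Sox2-positive cells. With that length Pcgf2 also fell below Bmi1 in both Sox2-negative groups.

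The other genes of the complexes were counted from lists, to be read against all genes tested. Of those, 32.5% were lower and 24.9% higher over both batches (median -0.12), 24.2% and 19.3% in batch A (median -0.04), and 27.6% and 27.1% in batch B (median 0.01). Of 19 other PRC1 genes, 8 were called lower, 1 higher and 10 not at all over both batches (edgeR), with a median log2 fold change of -0.42. The number lower fell to 5 or fewer under 4 of 9 settings other than leaving out 1 library. Among these it was 4 without batch B libraries 1 and 2, 5 with total-count scaling and 4 with no low-count filter. It was also 5 without batch B Sox2-negative library 1 or library 3. The number higher rose to 2 in 1 of 23 fits that left out 1 library, and under 2 of 9 other settings. In batch A, 2 were lower and 0 higher (median -0.32), and in batch B 7 were lower and 2 higher (median -0.45). Usp7, a deubiquitinase found with PRC1, was lower in all 3 fits, at 143 ± 39.3 against 41.0 ± 10.9 CPM (batch A) and 197 ± 17.9 against 71.5 ± 14.0 CPM (batch B) (-1.73, SE 0.14, edgeR adjusted p 5.30e-11), with no overlap in either batch. Pcgf3, the PCGF subunit of a variant PRC1, was also lower in all 3 fits (-1.07, SE 0.21, edgeR adjusted p 1.16e-04), with wide spread in batch A Sox2-negative cells (76.2 ± 43.4 CPM). The 1 gene called higher was Cbx8, another chromodomain subunit (1.21, edgeR adjusted p 0.0165), named after its value was seen, which passed in batch B (1.65, edgeR adjusted p 0.00647) and not in batch A (0.91, edgeR adjusted p 0.262).

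Among other PRC2 genes, 8 of 9 listed were tested, with 3 higher, 2 lower and 3 not called over both batches (median 0.15), 3 higher and 1 lower in batch A, and 2 higher and 2 lower in batch B. The number lower fell to 1 over both batches without batch A Sox2-negative 5 or Sox2-positive 1, or batch B Sox2-negative 1 or 4. It also fell to 1 under 2 of 9 settings other than leaving out 1 library. In batch B the number lower fell to 1 in 8 of 11 fits that left out 1 library, and under 4 of 9 other settings. Rbbp7, a histone-binding subunit of PRC2 and other complexes, was higher in all 3 fits, at 189 ± 75.5 against 471 ± 44.7 CPM (batch A) and 179 ± 34.2 against 411 ± 34.4 CPM (batch B) (1.19, SE 0.13, edgeR adjusted p 1.46e-08), and the populations did not overlap. Aebp2, an accessory subunit, was lower in all 3 fits, at 72.5 ± 34.6 against 27.3 ± 10.01 CPM (batch A) and 70.9 ± 19.0 against 38.3 ± 10.6 CPM (batch B) (-1.25, SE 0.23, edgeR adjusted p 5.55e-05). The other calls over both batches, named after their values were seen, were Rbbp4 (0.54, edgeR adjusted p 0.0148) and Mtf2 (0.61, edgeR adjusted p 0.0426) higher and Phf1 (-0.87, edgeR adjusted p 0.0246) lower. Rbbp4, the paralogue of Rbbp7, was called in batch A (1.09, edgeR adjusted p 9.10e-04) and not in batch B (0.0098, edgeR adjusted p 0.965), and this difference between batches passed (-1.16, edgeR interaction test, adjusted p 0.0136). Mtf2 was 0.16 in batch A (edgeR adjusted p 0.760) and 1.25 in batch B (edgeR adjusted p 2.91e-05), and Phf1 was -0.87 (edgeR adjusted p 0.219) and -0.79 (edgeR adjusted p 0.0479). Aebp2 kept its calls in all repeats, so the calls lost from the number lower were those of Phf1. Of 6 genes that oppose Polycomb marks (the H3K27 demethylases and the H2A deubiquitinase complex), 3 were lower and 1 higher (median -0.27), namely Kdm6a (-0.96, edgeR adjusted p 0.00549), Asxl1 (-0.41, edgeR adjusted p 0.0350), Asxl3 (-1.67, edgeR adjusted p 5.36e-04) and, higher, Bap1 (0.53, edgeR adjusted p 0.0109), also named after their values were seen. Kdm6a and Bap1 were called in batch A alone (-1.19 and 0.96), Asxl3 in batch B alone (-1.81), and Asxl1 in neither, and these differences between batches did not pass (edgeR interaction test, adjusted p 0.0840 to 0.846). No gene of these 6 was called with the same sign in all 3 fits.

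**Figure D4:**
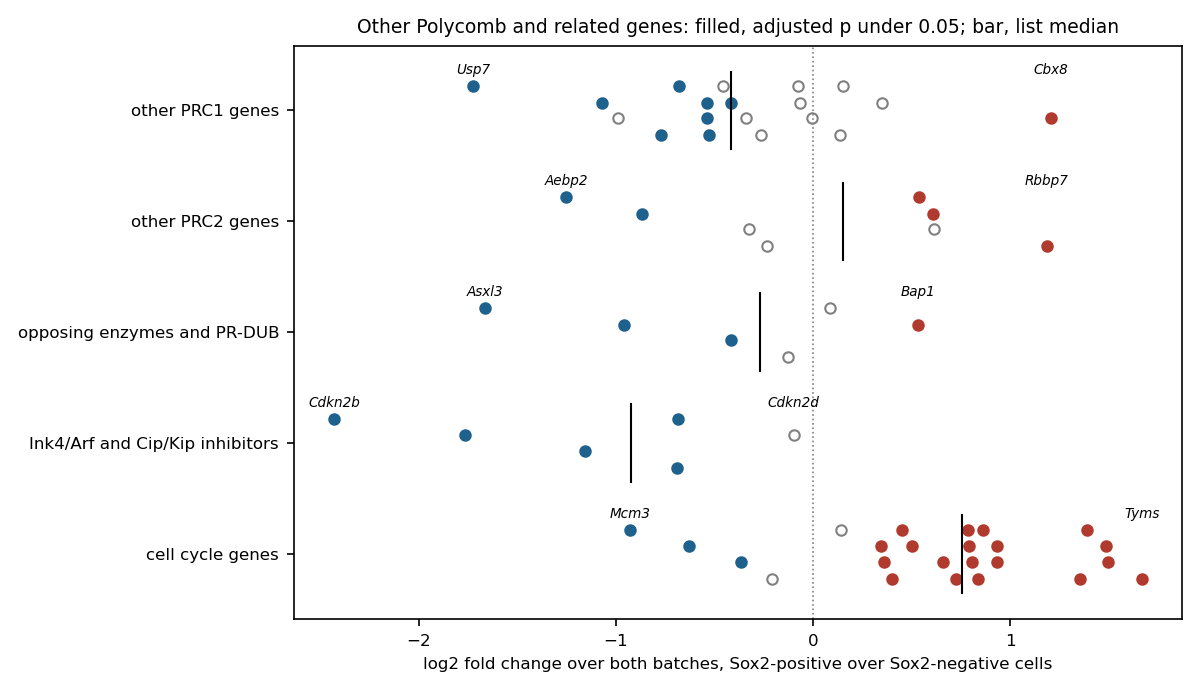
Log2 fold change over both batches (x axis) of each tested gene in 5 lists; filled points passed the threshold (red higher, blue lower), open points did not, black bars are list medians, and the lowest and highest gene of each list are named. The filled Ink4/Arf and Cip/Kip points (5 of 6 genes) all lie left of 0, and 19 of 24 cell cycle genes are filled to the right of it.

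Known targets of Bmi1-containing PRC1 were examined next. Cdkn2a, which encodes p16Ink4a and p19Arf, had 10 counts over the 6 batch A Sox2-negative libraries, present in 2 of them, and 1 count over the 6 Sox2-positive libraries. In batch B it had 0 counts in both populations, which allows up to 0.107 CPM in Sox2-negative and 0.0908 CPM in Sox2-positive cells at 3 counts over the group. It was too low to be tested. Of the other Ink4 and Cip/Kip inhibitors, 6 were tested and 5 were lower in Sox2-positive cells, 0 higher (median -0.92, against 32.5% lower among all genes), with 4 lower in batch A (median -0.75) and 5 in batch B (median -1.19). Cdkn1a (p21) averaged 287 ± 48.2 against 82.9 ± 6.35 CPM (batch A) and 380.03 ± 63.8 against 129 ± 11.5 CPM (batch B) (-1.76, SE 0.09, edgeR adjusted p 3.69e-15), without overlap. Cdkn2b (p15Ink4b), the neighbour of Cdkn2a, was low, with 9.71 ± 6.18 against 1.16 ± 1.38 CPM (batch A) and 5.91 ± 4.58 against 1.97 ± 0.947 CPM (batch B) (-2.43, SE 0.65, edgeR adjusted p 0.00227). Its batch B call was lost without Sox2-negative library 2 or 3 (edgeR adjusted p 0.0696 and 0.169), and its batch A call without Sox2-positive library 3 or 5 (edgeR adjusted p 0.0503 and 0.0516). The batch B call of Cdkn2b was also lost under 3 of 8 settings other than leaving out 1 library. Cdkn2c (p18Ink4c) was -1.16 (SE 0.23, edgeR adjusted p 1.42e-04) and Cdkn1c (p57) was -0.69 (SE 0.09, edgeR adjusted p 5.42e-07), both called in all 3 fits, although the Cdkn2c call in batch A was lost in 8 of 12 fits that left out 1 library (Sox2-negative 1, 3, 5 or 6, Sox2-positive 2, 4, 5 or 6, edgeR adjusted p 0.0617 to 0.0887). Under the other settings, the Cdkn2c call was lost in 3 of 8 for batch A and in 1 of 9 for batch B. The number of inhibitors lower fell to 2 in batch A without Sox2-positive library 5 and to 3 in batch B without Sox2-negative library 2.

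Hox genes, the classical Polycomb targets, mostly had few counts or none. Of 39 listed, 1 passed the filter, Hoxd8, which had counts in all 6 batch A Sox2-negative libraries (383 counts in all) and in 2 of 4 in batch B (25 counts), and none in any Sox2-positive library. Hoxd8 passed through Sox2-negative libraries alone, so the direction of the bounds below was set by the filter. The bounds are descriptions and not a test. Against 3 counts over the Sox2-positive group it was at least 152-fold lower in batch A and at least 9.83-fold lower in batch B, where 18 of the 25 counts were in Sox2-negative library 2, without which the bound was 3.67-fold. Among the 39, 36 had no count in any batch A Sox2-positive library, and likewise 36 in batch B. For Sox2-negative cells these numbers were 18 (batch A) and 28 (batch B). The groups differ in the number and total counts of their libraries, and the share of all genes without a count is not given here. These numbers are therefore descriptions and cannot be read as particular to Hox genes. Hoxc5 had 51 counts in 1 batch A Sox2-negative library, Hoxd4 had 10 and 8 counts in the Sox2-negative cells of batches A and B, and Hoxb6 had 5 counts in 1 batch B Sox2-positive library.

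Cell cycle genes are given beside Ezh2, whose expression is known to follow proliferation. Of 24 tested, 19 were higher in Sox2-positive cells over both batches, 3 lower and 2 not called (median 0.75, against 24.9% higher among all genes). The numbers higher and lower were 16 and 2 in batch A (median 0.87), and 11 and 2 in batch B (median 0.39). Their summed level was 1731 to 2059 CPM in Sox2-negative and 3072 to 3596 CPM in Sox2-positive libraries of batch A, and 1626 to 1960 against 2220 to 2425 CPM in batch B. Ezh2 was lower in Sox2-positive cells, where 19 of these 24 genes were higher and 3 lower over both batches. Its relation to proliferation was not tested. The 5 highest differences called in all 3 fits were Tyms (1.67), Ccnb1 (1.49), Cdc20 (1.49), Mcm6 (1.39) and Rrm2 (1.35), which act in nucleotide synthesis, mitosis and replication licensing. The lower genes were Mcm3 (-0.93, edgeR adjusted p 4.36e-06), Top2a (-0.63, edgeR adjusted p 4.48e-04) and the proliferation marker Mki67 (-0.37, edgeR adjusted p 0.00571), the last not called in either batch alone, nor over both with total-count scaling (edgeR adjusted p 0.0587) or with no low-count filter (edgeR adjusted p 0.0946). In batch B Mki67 passed with DESeq2 (DESeq2 adjusted p 0.0441), without libraries 1 and 2 (edgeR adjusted p 0.0455) and without Sox2-positive library 1 or 2 (edgeR adjusted p 0.0489 and 0.0482). The Top2a call was lost in batch A without Sox2-negative library 1 or Sox2-positive library 1, 4 or 6 (edgeR adjusted p 0.0544 to 0.0582), and in batch B without Sox2-negative library 4 (edgeR adjusted p 0.0651). Pcna did not pass over both batches (0.14, edgeR adjusted p 0.326), but did without batch B libraries 1 and 2 (0.35, edgeR adjusted p 0.0165). Nor was there a call for Birc5 (-0.21, edgeR adjusted p 0.0811), named after its value was seen. The Sox2-negative libraries also carried the mesenchymal, leukocyte, endothelial and, in batch B, erythroid RNA given above, with summed erythroid markers of 52539 to 59147 CPM in batch B against 960 to 1151 CPM in batch A Sox2-negative cells. The part of this cell content in the differences of Pcgf2, Ezh2, Suz12, Cbx2 and Ezh1 was not tested.

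Genes whose levels followed those of the members most closely were taken from 11056 genes with a mean of at least 10 CPM, by Pearson's r of log2 CPM over 23 libraries, which share 2 populations and 2 batches. For Bmi1 they were Prkaa1 (r 0.829), Zbtb9 (0.798) and Fam45a (0.773). Pcgf2 was closest to Ubqln2 (0.929), Gm17167 (0.927) and Gm47101 (0.926), Cbx2 to Zfp213 (0.925), Fyttd1 (0.923) and Ddx20 (0.919), and Ezh2 to Ppp1cb (0.905), Snx18 (0.888) and Wdr75 (0.876). Among the closest to Ezh1 were Pdlim3 (0.829) and Acd (0.825), and Rnf2 was closest to Nmral1 (0.820), Pms1 (0.795) and Msh6 (0.781). Lower values were found for Ring1 (Pcbp1 0.786, Lypla2 0.761, Csnk1d 0.730), Suz12 (Cwc15 0.783, Tubgcp5 0.780, Isca1 0.764), Cbx7 (Gm12895 0.732, Dhx35 0.731, Sav1 0.729) and Eed (Coa5 0.731, Mlh3 0.692, Tfap2a 0.688). These are descriptions over libraries of unequal groups, and the 3 members with r above 0.9 were all called between the populations.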

How the data were processed

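RNA was measured in 23 Smart-seq2 libraries. Per the file, the authors deposited 1 table of expected counts (estimated, not whole) per gene. FastQC, Trimmomatic, Salmon and the mouse build mm10 are named per the submitters' processing notes, without versions or roles. The annotation release is not given in the sources used here. Of 54347 identifiers, 54094 (99.5%) matched GENCODE M21, on GRCm38, without their version. Unused sample columns numbered 0, and Ezhip had no match.

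Counts were rounded to whole numbers, scaled by TMM and filtered with filterByExpr (minimum count 10). They were tested in edgeR 4.0.16 (R 4.3.3) by the 2-sided quasi-likelihood test with batch as covariate, in each batch alone, and with a population by batch interaction. P-values were adjusted by Benjamini-Hochberg over all genes tested, and calls were made at 0.05. The SE is the absolute log2 fold change divided by the square root of F. Ratios used a pseudocount of 0.5 count and exact permutation tests (scipy 1.17.1). DESeq2 1.42.0, limma-voom (limma 3.58.1), other scalings, filters and thinning were alternatives. The fits were run on simulated counts in which a small share of genes changed. Those counts do not test the scaling for data in which 57.5% of genes are called.

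The members and lists were chosen with earlier results of these data known. Named list genes were those called with the same sign in all 3 fits, at most 6 each way, plus Cdkn2a, Cdkn2b, Mki67, Top2a, Pcna and the 4 Hox genes with the highest mean CPM; likeness used the 3 highest r per member, of which 1 gene is not reported here.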

Additional observations from a re-analysis of the deposited data

Results flagged for a closer look

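In 4 of 103 groups of 4 to 7 libraries, 1 library lay far from the rest by Dixon's criterion, which chance alone meets in about 1 group in 20. Rnf2 measured 139 CPM in batch A Sox2-negative library 6, where the other 5 lay between 21.3 and 61.9 CPM. Cdkn2a was at 1.84 CPM in batch A Sox2-negative library 5, against 0 to 0.244 CPM in the others. Cdkn2c was at 37.0 CPM in batch B Sox2-negative library 1, with 18.2 to 19.7 CPM in the others. Cdkn1a was at 476 CPM in batch B Sox2-negative library 4, with 343 to 352 CPM in the others.

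For 5 of 24 cell cycle genes, the population difference itself differed between batches, against 4.22% of all genes called lower in that test. The Pcna difference was 0.51 in batch A and -0.20 in batch B, an interaction of -0.78 (edgeR adjusted p 0.0111). The Mcm6 difference was 1.87 in batch A and 0.94 in batch B, an interaction of -0.99 (edgeR adjusted p 0.00163). The other interactions, named after their values were seen, were -0.82 for Mcm5 (0.85 in batch A and 0.091 in batch B, edgeR adjusted p 0.0369), -1.06 for Mcm7 (1.01 and 0.016, edgeR adjusted p 0.00755) and -1.02 for Ccna2 (0.89 and -0.062, edgeR adjusted p 0.0107). Of the other PRC2 genes, 1 of 8 differed between batches: Rbbp4, at 1.09 in batch A and 0.0098 in batch B, an interaction of -1.16 (edgeR adjusted p 0.0136). Of the 6 opposing genes it was the demethylase gene Kdm6b, at -0.18 in batch A and 0.49 in batch B, an interaction of 0.60 (edgeR adjusted p 0.0489).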

How the results depend on the processing

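Of 720 repeats of the members' population differences under another setting or with 1 library left out, 640 kept their sign and their side of the threshold, 38 lost the call, 21 gained one and 21 changed sign. Pcgf2 and Ezh2 in all 3 fits, and Cbx2 and Ezh1 over both batches, kept their calls in each. With 1 library left out, members called ranged from 4 to 6 over both batches, 2 to 3 in batch A, 3 to 6 in batch B (3 without Sox2-negative library 2) and 0 to 2 between batches in Sox2-negative cells, where 2 were called with limma-voom and 0 with total-count scaling, no filter, or without batch B libraries 1 and 2. Without those libraries, genes called fell to 481 for the interaction and to 754 and 1159 between batches in Sox2-negative and Sox2-positive cells, and limma-voom gave 3313 for the last. Total-count scaling moved the median log2 fold change of all genes by 0.12 over both batches, and made genes higher and lower in batch B 661 and 1388 in Sox2-negative cells (1005 and 919 with TMM) and 666 and 1214 in Sox2-positive cells (833 and 952).

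Sign changes fell on members that were not called, and the cause was not tested. Over both batches, Eed was 0.082 with total-count scaling, 0.044 with no filter and 0.13 without batch B libraries 1 and 2, and -0.14 to 0.090 with 1 library left out. Between batches in Sox2-negative cells, Bmi1 was -0.043 with total-count scaling and -0.028 without libraries 1 and 2 (-0.057 to 0.36 leaving 1 out), and Ezh1 was -0.019 with DESeq2, -0.020 with RLE, -0.13 with total-count scaling, -0.0020 with a mean of 10 counts and -0.040 without libraries 1 and 2 (-0.14 to 0.25 leaving 1 out). In Sox2-positive cells Bmi1 was 0.071 with limma-voom and 0.0081 on thinned counts (-0.17 to 0.14 leaving 1 out). Leaving 1 out, interactions ran from -0.40 to 0.050 for Bmi1, -0.16 to 0.39 for Rnf2, -0.80 to 0.0083 for Cbx2, -0.56 to 0.33 for Cbx7 and -0.24 to 0.034 for Suz12.

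Ratios with 1 library left out ran from -0.33 to 0.25 (Rnf2/Ring1, batch A), 0.59 to 1.02 (Rnf2/Ring1, batch B), 2.16 to 3.67 (Cbx2/Cbx7, batch A) and 1.82 to 3.10 (Cbx2/Cbx7, batch B). A pseudocount of 5 gave 2.77 for Cbx2/Cbx7 in batch A (exact permutation adjusted p 0.0104). Without libraries 1 and 2, where 2 Sox2-negative libraries remain, batch B gave 1.95 (Bmi1/Pcgf2), 2.43 (Cbx2/Cbx7) and -1.98 (Ezh2/Ezh1), but the smallest exact permutation p of that design is 0.0952, so no call could be made.

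Same-numbered libraries of the populations were not paired by the data: over 10 pairs, r of their deviations ran from -0.041 to 0.068, none above 0.1, and 2 matched their own number best. With a replicate block, members called in batch B were 3, Suz12 over both batches did not pass (edgeR adjusted p 0.130), Cbx2 in batch A passed (edgeR adjusted p 0.0127), Ring1 was -0.012 and Eed 0.044. The blocked ratios were 1.83 (Bmi1/Pcgf2, batch A), 1.84 (Bmi1/Pcgf2, batch B), 2.08 (Cbx2/Cbx7, batch B), -1.23 (Ezh2/Ezh1, batch A) and -1.83 (Ezh2/Ezh1, batch B), but the smallest exact permutation p over pairs is 0.03125 in batch A and 0.125 in batch B, which cannot pass after adjustment over 8 tests. Cdkn2a had too few counts to be tested, as had all but 1 of 39 Hox genes.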
